A study of Rattus norvegicus with 2 samples.

Results

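Fos, Fosb, Jun, Junb, Egr1, Atf3 and Ier2, a group of immediate early genes, and Klf2, Klf4 and Klf6 of the Krüppel-like factor (KLF) family were followed through the cells of the rat carotid artery. The 10 genes were taken by symbol, and all 10 were found among the 32623 genes of the count matrix. The material was a pair of 10x Genomics single-cell RNA libraries from male Sprague Dawley (SD) rats, whose age is given as 12 weeks. The control library held the untreated left common carotid arteries of 2 rats, pooled, and the case library held the right arteries of the same 2 rats, pooled, collected 28 days after carotid balloon injury, in which an inflated catheter is drawn through the vessel so that a neointima forms. The study's procedure also cut into the external carotid branch to insert the catheter and ended with ligation of the external carotid. The part of this surgery in a difference between the libraries cannot be told apart from that of the balloon. The arteries of both libraries were digested with trypsin and collagenase before cell capture. Each group was a single library, so no spread between animals could be measured, no test between the groups was possible, and the 95% intervals given below cover counting error only.

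Immediate early genes are transcribed within minutes of a stimulus such as serum, stretch or wounding, because the factors that switch them on are already present in the resting cell. Fos and Jun proteins pair to form the AP-1 transcription factor, Egr1 is a zinc finger factor that is induced in injured vessels, and Atf3 is a stress-induced repressor. Klf2 and Klf4 are induced by laminar flow in the endothelium and maintain its quiescent, anti-thrombotic state, while Klf4 in smooth muscle cells represses contractile genes and Klf6 is a wound-response factor of endothelium and smooth muscle. The same genes are also known to be induced while tissue is digested into single cells. No undigested tissue was measured here, so transcripts present in the vessel wall and transcripts made during digestion cannot be told apart.

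Genes of this kind are switched on through short promoter elements. The window from 250 bases before to 50 bases after the start site was at hand in RefSeq (assembly GRCr8) for 6 of the 10 genes, namely Fosb, Junb, Egr1, Ier2, Klf4 and Klf6. Both strands were searched for the CArG box, the element of serum response factor, and for TGACGTCA, the cyclic AMP response element. They were also searched for TGANTCA, where N is any base, a pattern that takes in the AP-1 element but is wider than it. The CArG box stood in the windows of Egr1 and Klf6, against 1.64% of all 33469 promoter windows. TGACGTCA stood in that of Ier2, against 1.83% of all windows, and TGANTCA in none of the 6, against 7.33% of all. The 3 windows with a match are shown 5′ to 3′ with the matched letters in capitals, since these are the elements that serum, calcium and cyclic AMP signals are known to act through. The matches began at -105 and -83 in Egr1, at -66 in Ier2 and at -201 in Klf6, counted from the start site. They describe letters only and no binding was measured.
Egr1, chr18:26736828-26737127, plus strand: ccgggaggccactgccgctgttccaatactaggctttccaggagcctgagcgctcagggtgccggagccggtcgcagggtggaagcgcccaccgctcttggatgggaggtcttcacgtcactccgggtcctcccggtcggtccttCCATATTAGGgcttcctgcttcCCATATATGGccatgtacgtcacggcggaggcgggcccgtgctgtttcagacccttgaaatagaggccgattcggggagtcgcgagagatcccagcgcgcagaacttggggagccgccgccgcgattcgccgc
Ier2, chr19:40399123-40399422, plus strand: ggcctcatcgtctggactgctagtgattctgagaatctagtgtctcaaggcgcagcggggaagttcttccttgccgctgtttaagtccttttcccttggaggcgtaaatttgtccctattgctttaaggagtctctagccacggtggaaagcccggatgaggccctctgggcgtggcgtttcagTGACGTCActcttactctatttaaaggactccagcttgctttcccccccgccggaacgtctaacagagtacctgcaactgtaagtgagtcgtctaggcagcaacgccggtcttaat
Klf6, chr17:69458429-69458728, minus strand: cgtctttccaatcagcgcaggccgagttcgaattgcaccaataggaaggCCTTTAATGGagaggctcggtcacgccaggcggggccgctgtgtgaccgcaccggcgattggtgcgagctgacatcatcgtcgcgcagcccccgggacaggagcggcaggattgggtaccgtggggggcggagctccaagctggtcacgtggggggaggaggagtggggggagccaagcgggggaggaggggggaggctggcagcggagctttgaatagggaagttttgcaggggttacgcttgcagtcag

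Barcodes were kept at 1000 or more unique molecular identifiers (UMIs, each a counted transcript molecule) and at most 20% mitochondrial UMIs, which left 2244 control and 4947 case cells with a median of 10906 and 5174 UMIs. These were 67.6% of 3321 control and 87.5% of 5656 case barcodes. The mitochondrial limit was exceeded by 562 control and 370 case barcodes, and 798 and 524 lay below the UMI limit. Among the other ways of processing, the UMI limit was dropped, but the mitochondrial limit was only made stricter. Cells were gated by the share of their UMIs on marker genes into vascular smooth muscle cells (VSMCs; Acta2, Tagln, Cald1, Myl9, Myh11, Cnn1; 1204 control and 2667 case cells), fibroblasts (Dcn, Lum, Pdgfra, Dpt, Pi16, Mfap5; 723 and 1500 cells), endothelial cells (ECs; Cdh5, Cldn5, Sox17, Vwf, Egfl7, Emcn, Tie1; 55 and 235 cells) and macrophages (Cd68, Ncf4, Csf1r, C1qa, C1qb, C1qc, Lyz2, Mrc1; 36 and 93 cells). Among the 10 leading genes of each class in each library, 2 to 4 were its own markers and 0 were markers of another class. Since the cells were selected by these same markers, this count is no separate check of the classes. The matrix does not name its libraries, and the larger set of barcodes was taken as the case library, after the barcode numbers in the study's methods. VSMC markers stood in macrophages at 3.48% of their VSMC level in the control library and at 2.72% in the case library, a level given here as a measure of RNA from other cells. A total of 21 barcode sequences occurred in both libraries.

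Levels are given as the gene's share of all UMIs summed over the cells of a class, scaled to a total of 1e+06 (CPM), and were compared within a gene only, since 3′ counts of different genes are not on a common scale. VSMCs, fibroblasts, ECs and macrophages were ranked, and Schwann cells were left out. Among these 4 classes of the control library, 9 of the 10 genes were highest in ECs and 9 were lowest in macrophages. Klf4 was the exception at the top, highest in fibroblasts, and Klf6 the exception at the bottom, lowest in fibroblasts. Among the same 4 classes of the case library 9 were again lowest in macrophages, and 7 of the 10 were highest in ECs, because Fos and Egr1 were then highest in VSMCs.

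Fos (ENSRNOG00000008015), the inducible AP-1 partner of Jun, stood at 2316 CPM in control VSMCs, 1505 in fibroblasts, 4842 in ECs and 155 in macrophages, and in the case library at 2348, 1429.7, 2087 and 209.6 CPM. The control ECs thus stood 2.09-fold above the control VSMCs, whereas the case ECs lay below the case VSMCs. Fosb (ENSRNOG00000046667), a further AP-1 subunit, kept the order EC, VSMC, fibroblast, macrophage in both libraries, at 2229, 1485, 1164 and 155 CPM in the control library and 1813, 1464, 1350.2 and 187 in the case library. Jun (ENSRNOG00000026293), which can form AP-1 on its own, had the same order, from 3359 CPM in control ECs through 1658 and 951 to 399 in macrophages, and from 2176 through 1556 and 1166 to 288 in the case library. Jun was therefore less depleted in macrophages than Fos, at 24.0% and 18.5% of its VSMC level against 6.69% and 8.92% for Fos, while VSMC markers stood in macrophages at 3.48% and 2.72% of theirs. The part of RNA from other cells in these levels was not tested. Junb (ENSRNOG00000042838), a Jun family member that dampens Jun activity in many cells, was higher in fibroblasts than in VSMCs in the control library (1064 and 816 CPM), while in the case library its intervals in these classes overlapped (617 and 604 CPM).

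Egr1 (ENSRNOG00000019422) was highest in ECs of the control library, at 2896 CPM against 2313 in VSMCs and 1509 in fibroblasts. In the case library VSMCs led with 2782 CPM, and fibroblasts (2051, interval 2020.2 to 2082) and ECs (1989.8, interval 1906 to 2076) overlapped. Atf3 (ENSRNOG00000003745) stood at 1568 and 1083 CPM in control and case ECs, 1251 and 926 in VSMCs, 566 and 584 in fibroblasts and 428 and 208 in macrophages, so that fibroblasts held 45.2% and 63.1% of the VSMC level. Ier2 (ENSRNOG00000054344), an immediate early gene of less certain molecular function, followed the order of Fosb, from 609.7 and 274 CPM in ECs to 79.1 and 74.6 in macrophages.

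The KLF genes differed from each other in where they were found. Klf2 (ENSRNOG00000014205) was sparse outside the endothelium, at 15.8 and 22.0 CPM in control and case VSMCs and 13.3 and 20.7 in fibroblasts, against 84.7 (interval 59.4 to 117) and 74.9 (interval 59.4 to 93.2) in ECs. Macrophages held 0 Klf2 UMIs in the control library, which allows up to 12.2 CPM by the exact interval, and 1 in the case library. Klf4 (ENSRNOG00000016299) was highest in fibroblasts in both libraries, at 4827 and 4422 CPM, which was 2.99-fold and 2.67-fold the VSMC levels of 1617 and 1654 CPM. ECs held 3614 and 2940.3 CPM of Klf4, between both. Klf6 (ENSRNOG00000016885) was the most even of the 10 in the control library, at 337, 257, 244 and 216 CPM in control ECs, macrophages, VSMCs and fibroblasts, where the macrophage interval overlapped those of ECs and VSMCs. In the case library ECs stood apart from the rest, at 403 CPM against 195 in macrophages, 147 in VSMCs and 144 in fibroblasts.

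**Figure D1:**
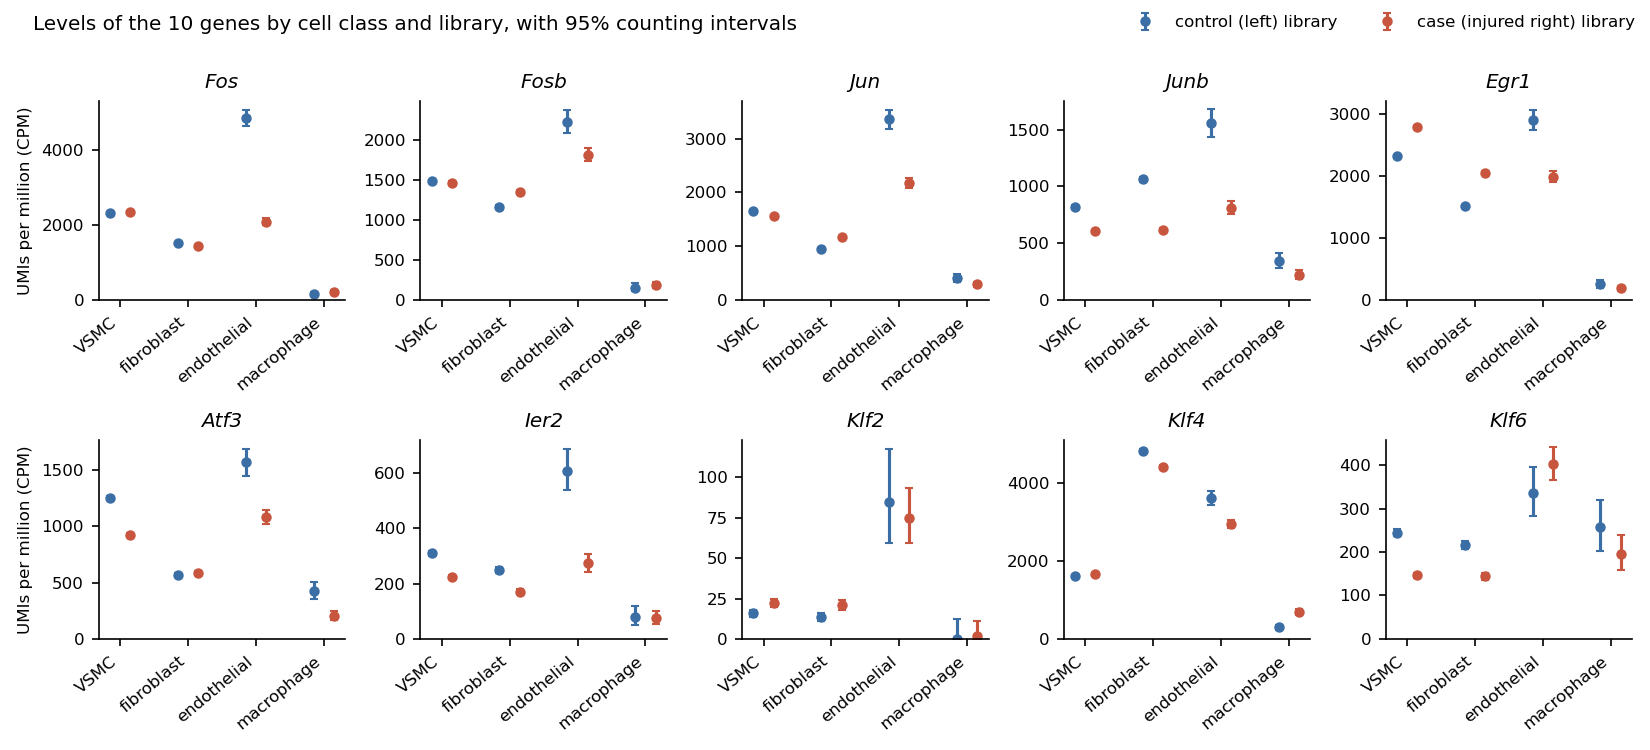
Levels of the 10 genes in CPM (linear axes from 0) by cell class, with the control library in blue and the case library in red; points are summed UMIs of 1 library and bars are exact 95% Poisson intervals. Macrophages lie lowest of the 4 classes for all genes but Klf6, Klf4 peaks in fibroblasts, and the control ECs lie far above the case ECs for Fos (4842 against 2087 CPM).

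Set against VSMCs of the same library, 8 of the 9 members counted were at least 1.5-fold lower in macrophages in both libraries and 0 were higher, where 39.4% and 31.7% of all genes counted were lower and 31% and 32.8% higher. In ECs, 7 of 10 members were at least 1.5-fold higher in the control library and 3 of 10 in the case library, against 27% and 24.9% of all genes, and 0 were lower in either, against 23.4% and 21.7%. In fibroblasts, 4 of 9 members were lower in the control library and 2 of 10 in the case library, against 31.5% and 28.5% of all genes, and 1, Klf4, was higher in each, against 21.2% and 20.9%. A gene was counted where its mean over the pools compared was at least 20 CPM.

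Comparing the injured with the control arteries, the VSMCs carried about the same total of these transcripts, 1.20% of all UMIs in the control library and 1.17% in the case library. The largest difference was in Klf6, at 244 CPM (interval 236 to 253) in the control and 147 CPM (interval 140.5 to 153) in the case library, 1.67-fold lower. Ier2, Junb and Atf3 were also lower in the injured arteries but by less than 1.5-fold, at log2 ratios of -0.47, -0.43 and -0.43, with Ier2 at 310.5 and 225 CPM. Egr1 went from 2313 to 2782 CPM, a log2 ratio of 0.27 (interval 0.24 to 0.29), and Klf2, which lay below the level counted, from 210 to 333 UMIs, a log2 ratio of 0.48 (interval 0.23 to 0.74). Fos, Fosb, Jun and Klf4 differed little, with log2 ratios of 0.020, -0.020, -0.091 and 0.032. Of 9 members counted, 0 were at least 1.5-fold higher and 1 lower, where 6.18% of all 4770 genes counted were higher and 14.6% lower. The median log2 ratio of these members was -0.091 and that of all genes -0.12. Under size factors of the DESeq2 kind the log2 ratio of Klf6 was -0.57, just short of 1.5-fold.

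Fibroblasts held 1.21% and 1.20% of their UMIs in the 10 genes in the control and case libraries, and the members differed in direction. Junb was lower in the injured arteries, at 1064 CPM in the control and 617 CPM in the case library, 1.72-fold. Klf6 (216 and 144 CPM) and Ier2 (251 and 172 CPM) were also lower but short of 1.5-fold, at log2 ratios of -0.58 and -0.55. Egr1, Jun and Fosb were instead the higher in the case library, at log2 ratios of 0.44 (interval 0.41 to 0.48), 0.30 (interval 0.25 to 0.34) and 0.21 (interval 0.17 to 0.25), all under 1.5-fold. Fos, Atf3 and Klf4 lay at -0.074, 0.046 and -0.13. Klf2, below the level counted, rested on 112 and 173 UMIs, a log2 ratio of 0.64 (interval 0.29 to 0.99). Of 9 members counted, 0 were higher and 1 lower by 1.5-fold, against 5.75% and 13.4% of all 4416 genes, and the members' median was -0.074 against -0.078 for all genes. The members lower by 1.5-fold numbered 2 with a mitochondrial limit of 10% and 3 in cells thinned to 2000 UMIs.

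Of the 4 main classes, the ECs differed the most in the share of these transcripts. The 10 genes made up 2.11% of EC transcripts in the control library and 1.37% in the case library. Fos went from 4842 CPM (interval 4635 to 5056) to 2087 CPM (interval 2001 to 2176), 2.32-fold lower, Ier2 from 609.7 to 274 CPM, 2.22-fold lower, Junb from 1554 to 811 CPM, 1.92-fold lower, and Jun from 3359 to 2176 CPM, 1.54-fold lower. Egr1 and Atf3 were lower by 1.46-fold and 1.45-fold, and Fosb and Klf4 by 1.23-fold each, which under size factors of the DESeq2 kind turned to log2 ratios of 0.032 and 0.033. The intervals of the log2 ratio of Klf2, -0.18 (interval -0.76 to 0.43), and Klf6, 0.26 (interval -0.018 to 0.54), contained 0. Over the other ways of processing, Klf2 ran from -0.95 to 0.15 and Klf6 from -0.0051 to 0.59, so neither can be called unchanged. Thus 4 of 10 members were at least 1.5-fold lower and 0 higher, but 29.2% of all 4987 genes counted were lower in these small pools and 18% higher. The members' median log2 ratio was -0.54 and that of all genes -0.17. The ratio of Fos ran from -1.26 to -0.88 over the other ways of processing, and that of Jun from -0.73 to -0.30. Jun stood at -0.37 under TMM scaling and -0.30 under size factors, both short of 1.5-fold, which left 3 members lower. VSMC markers summed to 1469 and 1088 CPM in control and case ECs. Their part in the result was not tested.

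In macrophages the members were a small part of the transcripts, 0.236% and 0.225% of UMIs in the control and case libraries. Klf4, which monocytes need to differentiate, was the only member higher by 1.5-fold, at 293 CPM (interval 236 to 361) and 679 CPM (interval 608 to 756). Fibroblast markers in macrophages stood at 0.309% and 0.416% of their fibroblast level, and VSMC markers at 3.48% and 2.72% of their VSMC level. The part of RNA from other cells in the Klf4 levels was not tested. The ratio of Klf4 depended on how the cells were chosen, at a log2 value of 1.21 with the marker gates and 0.14 with clusters named from the same markers. Atf3 was lower in the case library, at 428 and 208 CPM, and Junb at 339 and 222 CPM. These were 1 of 9 members higher and 2 lower, against 22.1% and 16.2% of all 4302 genes counted, with a members' median of -0.40 against 0.045. Of the other 6 counted, the intervals of Fos, Fosb, Egr1, Ier2 and Klf6 contained no difference, and Jun stood at a log2 ratio of -0.47 (interval -0.83 to -0.11).

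**Figure D2:**
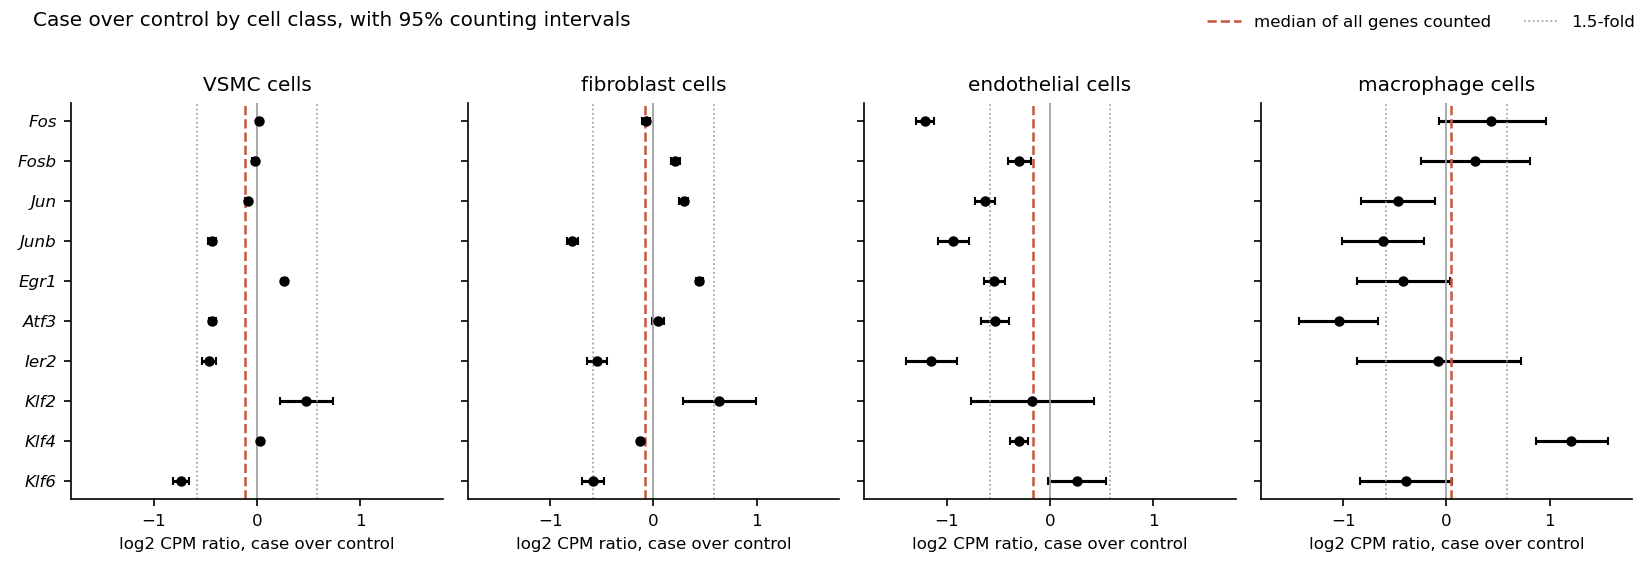
The log2 ratio of each gene's CPM, case over control, in each cell class, with exact 95% counting intervals; dotted lines mark 1.5-fold either way and the red dashed line the median of all genes counted in that class. Members scatter around the median of all genes in VSMCs (-0.12) and fibroblasts (-0.078), and 9 of 10 lie below 0 in ECs. Klf2 in macrophages has no ratio and is left out.

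Taken cell by cell, Jun, Klf4, Egr1, Fosb, Atf3, Fos and Junb were each found in most VSMCs, and Ier2, Klf6 and Klf2 in fewer. To set both libraries at the same depth, each cell was thinned at random to 2000 UMIs and shallower cells were left out (144 control and 108 case VSMCs, 19 and 68 fibroblasts, 0 and 15 ECs, 0 and 5 macrophages). At that depth a UMI of Jun was found in 86.3% (84.1 to 88.3%) of control and 85.4% (84.0 to 86.7%) of case VSMCs, of Egr1 in 84.2% and 85.4% and of Fos in 75.6% and 75.5%, with Junb in 65.4% and 56.4% and Ier2 in 42.4% and 35.2% (without thinning, Fos was found in 90.2% and 86.2%). Fibroblasts were more divided, with Fos in 54.5% (50.8 to 58.3%) of control and 54.3% (51.7 to 56.9%) of case cells (81.9% and 71.1% unthinned). Klf4 was found in 96.3% and 94.6% of fibroblasts, and also in 85.9% of control and 86.8% of case VSMCs. In ECs Fos was found in 89.1% (77.8 to 95.9%) of control and 69.1% (62.5 to 75.1%) of case cells (94.5% and 80% unthinned), and Klf2 in 21.8% (11.8 to 35.0%) and 11.4% (7.49 to 16.3%). In macrophages, the class with the lowest levels, Fos was found in 19.4% (8.19 to 36.0%) and 29.5% (20.3 to 40.2%) of cells, at the same 2000 UMIs. Klf2 was found in 2.92% and 4.42% of VSMCs and 2.98% and 4.54% of fibroblasts, against 0 of 36 control macrophages, which by 3 counts of the total allows up to 8.33% of cells with a UMI and sets no limit on cells that express the gene, and 1 of 88 case macrophages.

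The summed UMIs of the 10 genes per 2000 UMIs differed widely among cells of a class. In VSMCs the median was 20 in the control and 21 in the case library, with 80% of cells between 6 and 47.1 and between 5 and 49. In fibroblasts the median was 21 and 17, and the upper end of the case cells lay further out, with the 90th percentile at 63 against 57. The variance was 25.7 times the mean in case fibroblasts, 17.4 times in control fibroblasts and 12.2 and 13.0 times in control and case VSMCs, where random sampling of an even level would give 1. The tenth of case fibroblasts with the most member UMIs held 33.5% of them. In ECs the median was 36 in the control and 19.5 in the case library, and 52.7% and 18.6% of cells held at least 8 of the 10 genes. Macrophages had medians of 4 and 3, and a single control macrophage held 78 UMIs.

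**Figure D3:**
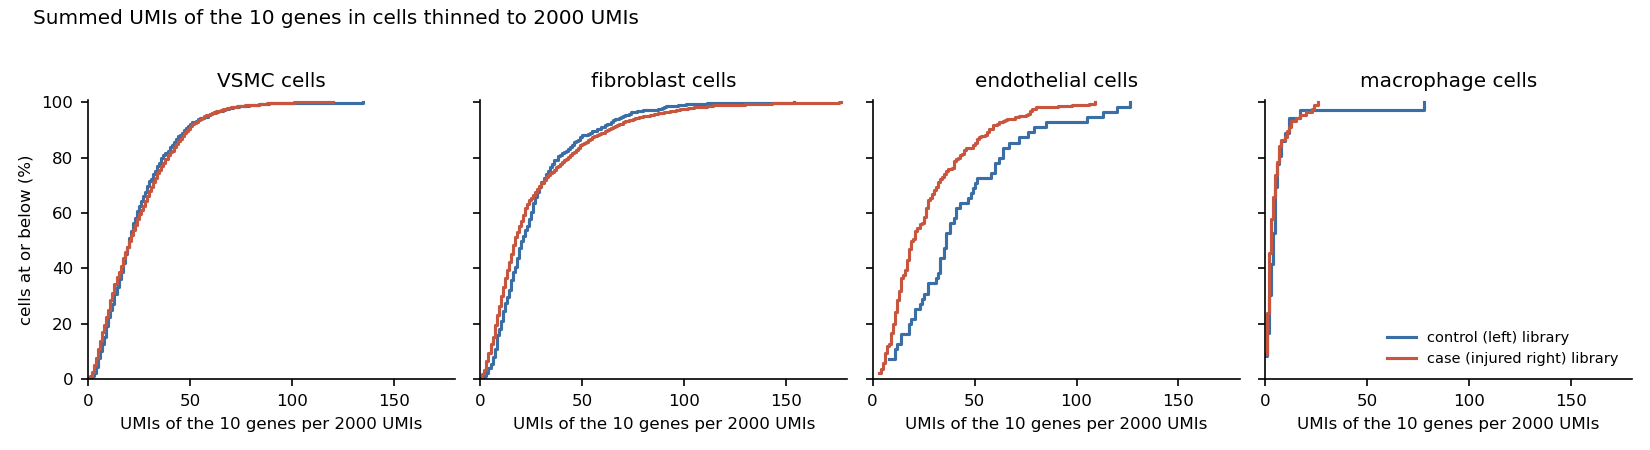
Cumulative share of cells (percent, vertical axis) by the summed UMIs of the 10 genes in cells thinned to 2000 UMIs (horizontal axis), with the control library in blue and the case library in red. The curves of both libraries run close in VSMCs, cross in fibroblasts, and lie apart in ECs, where the medians are 36 and 19.5.

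Within a class, Fos, Fosb and Egr1 tended to be high in the same cells. Spearman's rho over thinned cells between Fos and Egr1 was 0.60 and 0.69 in control and case VSMCs, 0.64 and 0.69 in fibroblasts and 0.66 and 0.71 in ECs. Fos and Fosb gave 0.51 and 0.59, 0.62 and 0.64, and 0.63 and 0.60 in the same order. Jun ran with Fos too, at 0.41 and 0.49 in VSMCs and 0.58 and 0.60 in fibroblasts. The rho of Junb to Fos was lower, at 0.34 and 0.33 in VSMCs, 0.13 and 0.21 in fibroblasts and 0.42 and 0.09 in ECs. The rho of Klf4 to Fos was 0.60 and 0.50 in ECs, 0.25 and 0.33 in VSMCs and 0.12 and 0.30 in fibroblasts. Dnajb1, a heat shock gene and no member, had a rho to Fos of 0.14 and 0.25 in VSMCs and 0.28 and 0.36 in fibroblasts. Klf6 ran against Fos in ECs, with -0.20 and -0.34, and had a rho near 0 in VSMCs (0.05 and 0.01). These are descriptions over the cells of a library, which share their tissue, digestion and free RNA, and the sparse Klf2, Ier2 and Klf6 allow only weak values.

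The ECs could be divided by Plvap and Emcn, genes of fenestrated, capillary and venous endothelium, of which at least 1 UMI was found in 12 of 55 control and 102 of 235 case cells. In the case library the cells with Plvap or Emcn held far less Fos, at 691 CPM against 3071 in the cells without, a log2 ratio of -2.15 (interval -2.33 to -1.98). Egr1 stood at 721 against 2884 CPM and Fosb at 736 against 2571 CPM, 4.00-fold and 3.49-fold lower. Klf4 (1606 and 3879.8 CPM) and Klf2 (24.9 and 110.1 CPM), the KLFs induced by laminar flow, were also lower in the cells with Plvap or Emcn. All case ECs together held only 80 Klf2 UMIs, so its levels in these subsets rest on few counts. Klf6 was the reverse, at 623 CPM with and 247 without, 2.52-fold higher. Junb, Atf3 and Ier2 had intervals that contained no difference there. The median depth was 4109.5 UMIs in case cells with and 3908 in those without. Emcn is also among the 7 markers of the EC gate.

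In the control library the 12 cells with Plvap or Emcn also had more Klf6, at 871 against 199 CPM, and less Fos, at 2933 against 5336 CPM. Their Egr1 (2899 and 2895 CPM) and Fosb (2085 and 2267 CPM) lay within counting error of the rest, and Junb was higher, at 2211 against 1384 CPM. Set across libraries, the cells with Plvap or Emcn had 4.24-fold less Fos and 4.02-fold less Egr1 in the case library. In the cells without either gene Fos was 1.74-fold lower (5336 and 3071 CPM), Junb 1.70-fold lower and Ier2 1.84-fold lower, while Fosb was 1.13-fold higher. In the same cells the log2 ratios of Egr1, -0.0054 (interval -0.12 to 0.11), and Klf4, 0.018 (interval -0.080 to 0.12), had intervals that contained 0. The lower Fos, Junb and Ier2 of case ECs were therefore found in both subsets, and the lower Egr1, Fosb and Klf4 in the cells with Plvap or Emcn. The control value of those cells rests on 12 cells.

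**Figure D4:**
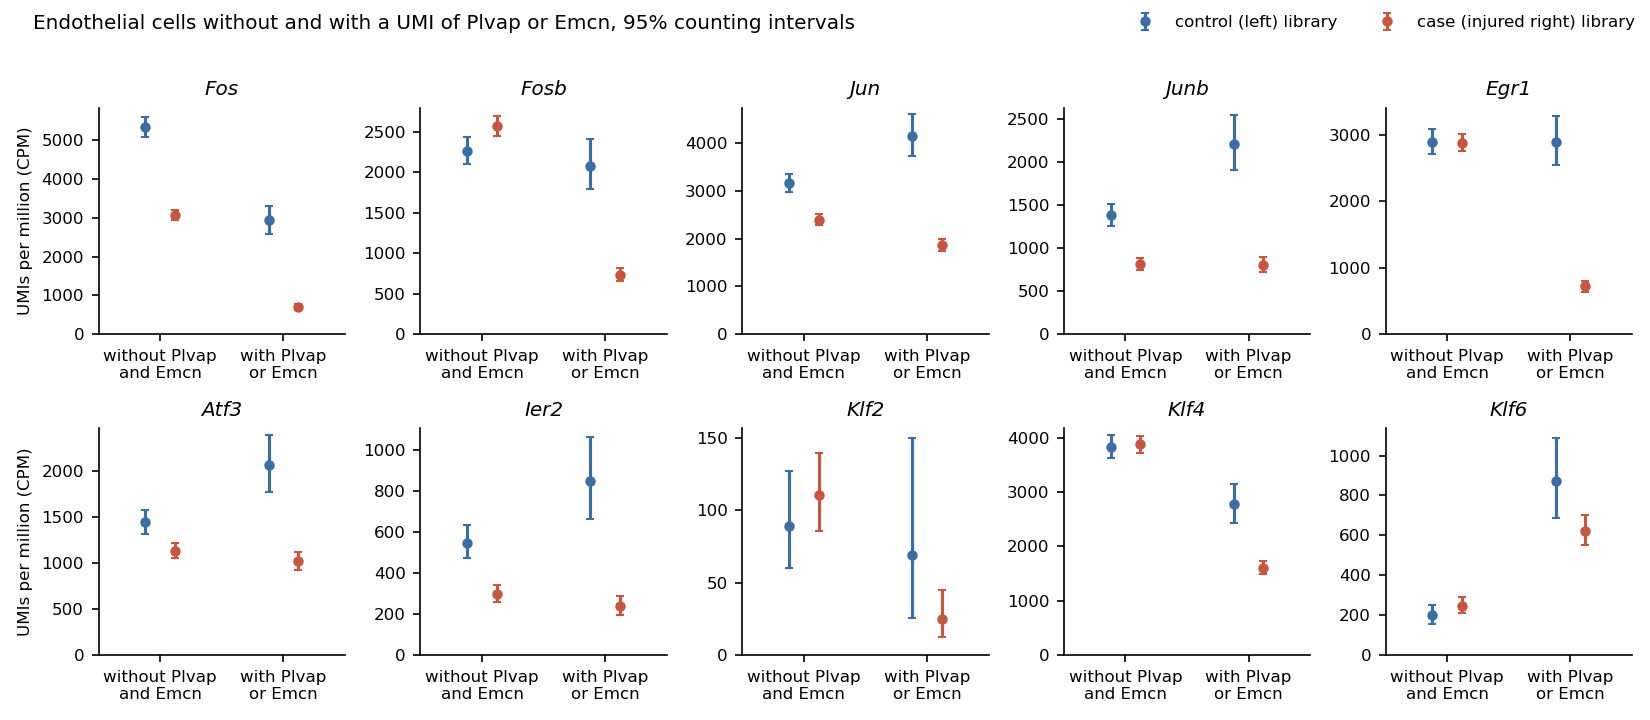
Levels of the 10 genes in CPM in ECs without Plvap and Emcn (43 control and 133 case cells) and with either gene (12 and 102 cells), with the control library in blue, the case library in red and exact 95% Poisson intervals as bars. In the case library Fos, Fosb, Egr1, Klf2 and Klf4 are lower in the cells with Plvap or Emcn, whereas Klf6 is higher in both libraries.

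Fibroblasts divided along Gfpt2, an enzyme of hexosamine synthesis, in the same way in both libraries. Those without a Gfpt2 UMI (157 control and 419 case cells) held 3757 and 3228 CPM of Fos, against 1143 and 987 in those with it (566 and 1081 cells), 3.29-fold and 3.27-fold. Jun, Egr1 and Fosb were higher by 2.68-fold, 2.35-fold and 2.40-fold in the control and 2.45-fold, 2.79-fold and 2.64-fold in the case library. Klf4, Atf3 and Klf6 differed by at most 1.22-fold. Cells without Gfpt2 were shallower, with a median of 6772 and 3719 UMIs against 12464 and 5764, and a gene is missed more often in a shallow cell. In the middle tertile of cells by UMIs, a comparison added after the values had been seen, Fos was 3.05-fold and 3.56-fold higher without Gfpt2. Depth varies within a tertile too, and mitochondrial share was not matched. Their part in the difference was not tested.

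Depth and mitochondrial share moved with these genes in fibroblasts. Fos stood at 2998 CPM in the lowest tertile of control fibroblasts by UMIs and 841 in the highest, and at 2776 and 812 in the case library. From the lowest to the highest tertile by mitochondrial share, it went from 719 to 2909.8 CPM in the control and from 621 to 2557 in the case library. Junb (968 and 1023 CPM in the control, 662 and 602 in the case library) and Atf3 (531 and 579, 577 and 648) hardly moved between those tertiles. Klf4 differed by 1.20-fold and 1.32-fold. Fosb, Jun and Egr1 were 2.72-fold, 2.37-fold and 2.65-fold higher in the highest tertile by mitochondrial share in the control and 2.58-fold, 2.24-fold and 2.93-fold in the case library. Fos, Fosb, Jun and Egr1 were thus higher in the tertile with the highest mitochondrial share. Depth and mitochondrial share were not separated from each other, and the same tertiles of VSMCs and ECs are not reported here. Junb, Atf3 and Klf4 differed less between those tertiles, and Junb was higher in the highest one in the control but lower in the case library. The part of depth or mitochondrial share in the difference between libraries was not tested. The median fibroblast had 11339 UMIs in the control and 5141 in the case library, with 2.01% and 2.17% mitochondrial UMIs.

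**Figure D5:**
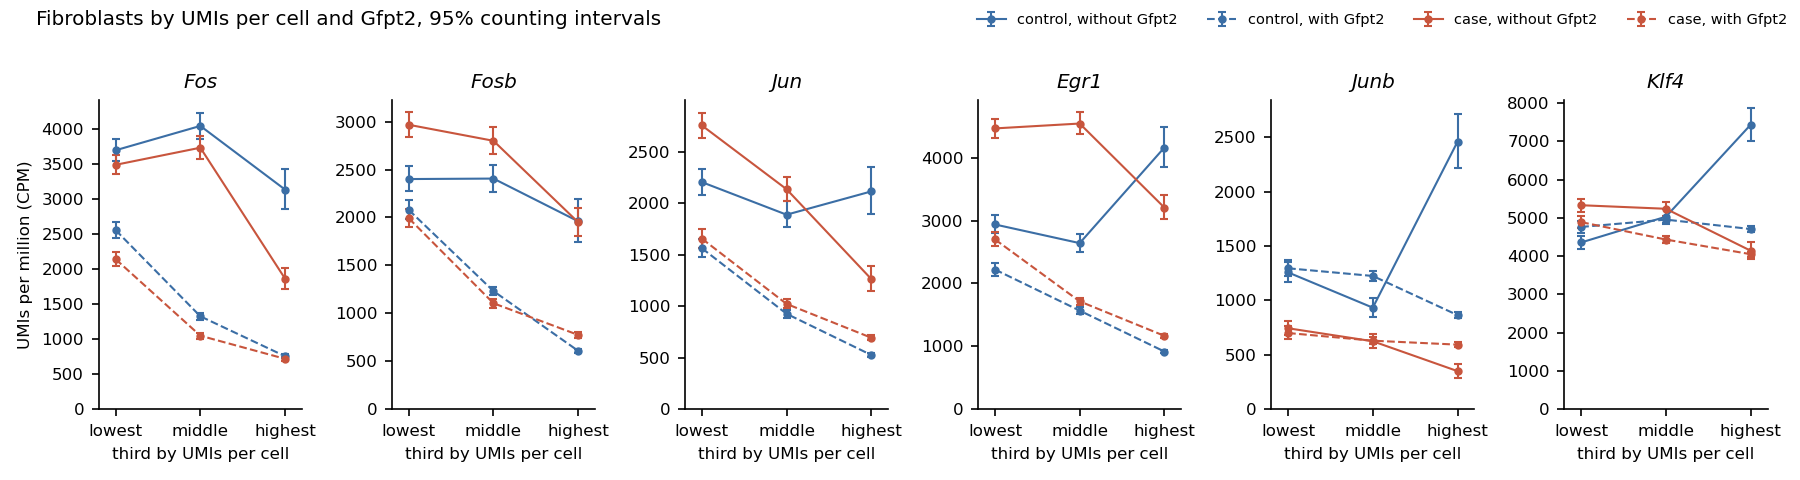
Levels in CPM of 6 of the 10 genes in fibroblasts by tertile of UMIs per cell, with the control library in blue, the case library in red, solid lines for cells without and dashed lines for cells with a Gfpt2 UMI, and exact 95% Poisson intervals as bars. Fos, Fosb, Jun and Egr1 lie higher without Gfpt2 in every tertile of both libraries, and the control cells without Gfpt2 in the highest tertile number only 10.

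VSMCs divided in a like manner along Notch1, a receptor of contact-dependent signalling, but less widely. Those without a Notch1 UMI (792 control and 1941 case cells) held 3021 and 2776 CPM of Fos, against 1405 and 1417 with it. In the middle tertile by UMIs the difference was 2.30-fold and 2.31-fold. Klf6 did not follow, at log2 ratios of -0.058 (interval -0.16 to 0.042) and -0.071 (interval -0.20 to 0.060). Case over control, Klf6 was lower both in VSMCs with Notch1 (249.9 and 151 CPM) and without (240.0 and 144 CPM), and Junb was lower in fibroblasts both with Gfpt2 (1028 and 617 CPM) and without (1289.8 and 618 CPM). Fos differed less between VSMCs with and without a UMI of Spp1, osteopontin, at 2251 and 2301 CPM with Spp1 and 2705 and 2431 without. The depths of the subsets by Notch1 and Spp1 are not given here. Among fibroblasts, Junb in cells with a UMI of Postn, periostin, stood at 1820.2 CPM in 57 control and 438 CPM in 288 case cells. The other members and the cells without Postn are not given here, so this difference cannot be set apart from that of fibroblasts at large. Over all thinned control fibroblasts, Junb had a median of 1 UMI per cell and a maximum of 49. Whether a few cells carried the level of the 57 control cells was not tested.

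Cells that passed both the VSMC and the fibroblast gate (133 control and 156 case) held 2476 and 2829 CPM of Klf4, between the levels of VSMCs and fibroblasts, and 2329 and 1703 CPM of Fos. Klf6 in these cells was 272 CPM in the control and 133 in the case library, 2.05-fold lower, and their median depth was 2226 and 8970 UMIs. Under 2000 UMIs lay 61 of the control and 6 of the case cells, so the libraries may hold unlike cells here. The part of doublets and of RNA from other cells in these levels was not tested.

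Of 32 other immediate early genes listed, 26 were counted in VSMCs. Of these, 1 was higher and 3 lower by 1.5-fold in the case library, beside 6.18% and 14.6% of all genes. The lower ones were Jund, the constitutive Jun family member, which went from 409.7 to 241 CPM (log2 ratio -0.77), Ier3, from 729 to 467 CPM (log2 ratio -0.64), and Ccn1, a matricellular protein gene, from 443 to 263 CPM (log2 ratio -0.75). In fibroblasts 0 of 25 were higher and 4 lower, beside 5.75% and 13.4% of all genes. The lower ones there were the C/EBP factors Cebpd, from 596 to 230.4 CPM (log2 ratio -1.37), and Cebpb, from 1699.6 to 961 CPM (log2 ratio -0.82), with Maff, from 301 to 181 CPM (log2 ratio -0.73), and the orphan receptor gene Nr4a2, from 1168 to 729.9 CPM (log2 ratio -0.68). In ECs 6 of 26 were higher and 7 lower, beside 18% and 29.2% of all genes, and in macrophages 4 of 23 higher and 3 lower, beside 22.1% and 16.2%, so neither stood far from the genes at large. The median log2 ratio of the list was -0.13, -0.18, -0.10 and -0.058 in VSMCs, fibroblasts, ECs and macrophages, beside -0.12, -0.078, -0.17 and 0.045 for all genes. The 1 higher in VSMCs was Fosl1, a further AP-1 subunit, named after its values were seen, from 21.0 to 46.4 CPM (log2 ratio 1.14).

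Of 14 other KLF genes, 7 were counted in VSMCs and 7 in fibroblasts, and 0 of them passed 1.5-fold in either direction. Of all genes, 6.18% were higher and 14.6% lower in VSMCs, and 5.75% and 13.4% in fibroblasts. The medians of the list were -0.18 and 0.28, beside -0.12 and -0.078 for all genes. In ECs 1 of 7 was higher and 2 lower, beside 18% and 29.2% of all genes, and in macrophages 3 of 6 were higher and 0 lower, beside 22.1% and 16.2%. Heat shock genes, which are also known to rise when tissue is handled, had a median log2 ratio of 0.32, 0.16, -0.31 and -0.18 in the same 4 classes. The medians of all genes were -0.12, -0.078, -0.17 and 0.045. In VSMCs 2 of 9 were higher in the case library and 0 lower, beside 6.18% and 14.6% of all genes. The higher ones were Hsph1, from 468 to 797 CPM (log2 ratio 0.77), and Hspd1, from 346 to 537 CPM (log2 ratio 0.63). In fibroblasts 0 of 9 were higher and 1 lower, beside 5.75% and 13.4%, namely Hspe1, from 234 to 156 CPM (log2 ratio -0.59). In ECs 0 of 9 were higher and 3 lower, beside 18% and 29.2%, and in macrophages 0 of 9 higher and 1 lower, beside 22.1% and 16.2%. Of 9 genes counted in ECs that are known to be regulated by KLF2 and KLF4, 2 were higher and 3 lower, with a median of -0.46, beside 18% and 29.2% of all genes and a median of -0.17, and counts this small do not set the list apart. The list did not separate genes that these factors raise from genes that they lower, so its median and counts give no measure of their activity. Named after their values were seen, the lower ones were Nos3, the endothelial nitric oxide synthase, from 209.5 to 98.3 CPM (log2 ratio -1.09), Thbd, thrombomodulin, from 1189 to 736 CPM (log2 ratio -0.69), and Edn1, endothelin, from 339 to 192 CPM (log2 ratio -0.82). Of the 2 higher ones, only Plvap is named here, likewise after its values were seen, from 151 to 305 CPM (log2 ratio 1.02). Plvap also served above to divide the ECs, and a larger part of the case ECs held Plvap or Emcn. The other higher gene and those short of 1.5-fold are not named, so the named genes do not stand for the list.

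Across the 8 pools of class and library, the genes whose log2 levels were most like the mean pattern of the members, among 2699 genes of at least 50 CPM, were Ccn1, Txndc5, S100a16, Sec63 and Bmpr2, with Pearson's r of 0.99, 0.99, 0.99, 0.99 and 0.99. Ccn1, also an immediate early gene, stood at 2173 and 1631 CPM in control and case ECs and at 6.59 and 6.04 in macrophages. Among the members themselves, each of which is part of that mean, Jun was closest to it (r of 0.98) and Klf4 (0.81) and Klf6 (0.37) the furthest from it. The pools of a library share its depth and free RNA, and these values describe likeness only.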

How the data were processed

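The authors aligned the reads of 2 10x Genomics 3′ libraries to the rat genome Rnor 6.0 with Cell Ranger 3.1.0 and deposited a single matrix of UMI counts per gene and barcode, unfiltered by cell type. Their later filters and clusters, made in Seurat, were not used here. The library of a barcode was read from its suffix. From the counts, cells were kept at 1000 or more UMIs and at most 20% mitochondrial UMIs and gated by the share of UMIs on marker genes, with at least 3 marker UMIs. The limits were 0.4% for VSMCs, 0.1% for ECs and 0.3% for fibroblasts, macrophages and Schwann cells, the last of which are not reported here. Cells that passed more than 1 gate were kept out of the classes, and no doublet caller was used in the main values. UMIs were summed per class and library and given as CPM. Intervals are 95% exact Poisson intervals for levels, exact binomial intervals for shares of cells and exact conditional intervals for ratios. UMIs of cells in a library are not independent samples of a condition, and no p-value was computed.

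A gene counted as higher or lower at 1.5-fold, if its CPM averaged 20 or more over the pools compared. Genes of the other lists were named at a mean of at least 50 CPM and 1.5-fold in VSMCs or fibroblasts, at most 6 per list and class, and the 5 most alike genes by Pearson's r of log2(CPM + 1). The members and the lists were chosen with earlier results of these data known. Promoter windows came from RefSeq on GRCr8, which is not the build of the counts, and those of Fos, Jun, Atf3 and Klf2 were not used. The tables were made in Python 3.11.15 with pandas 2.3.3, numpy 2.4.6 and scipy 1.17.1, the clusters with leidenalg 0.10.2 in scanpy 1.11.5, the TMM factors with edgeR 4.0.16 in R 4.3.3 and the plots with matplotlib 3.10.9. The ratio script was tested on simulated Poisson counts. These lack the spread among cells seen here, so that test bears on the code and not on how well the intervals cover these data.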

Additional observations from a re-analysis of the deposited data

How the results depend on the processing

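Each ratio was recomputed under 12 other choices, with 468 values for the members. Of these, 360 lay within the counting interval of the reported value and 108 outside it. No ratio that was past 1.5-fold changed sign, but 20 values of 10 smaller ratios did, all with a reported log2 ratio of at most 0.42 in size, namely Fos, Fosb and Jun in VSMCs, Fosb, Klf2, Klf4 and Klf6 in ECs and Fosb, Egr1 and Ier2 in macrophages. TMM scaling moved all log2 ratios by 0.13 in VSMCs, 0.072 in fibroblasts, 0.26 in ECs and 0.0030 in macrophages, and size factors of the DESeq2 kind by 0.17, 0.044, 0.33 and -0.027. The median log2 ratio of the members ran from -0.12 to 0.078 in VSMCs, from -0.092 to 0.019 in fibroblasts, from -0.60 to -0.21 in ECs and from -0.90 to 0.21 in macrophages. Counts of members past the fold moved as follows, and the cause was not tested. With size factors, 0 were lower in VSMCs, and in ECs 1 was higher and 3 in place of 4 were lower. TMM also left 3 lower in ECs. At a fold of 2, 0 were lower in VSMCs and fibroblasts, 2 in ECs and 1 in macrophages. In fibroblasts 2 were lower with 10% mitochondrial UMIs, with doubled gates, with cells of several gates assigned and with Leiden clusters, 3 were lower in thinned cells, and 1 was higher by the mean over cells. In macrophages 2 were higher with doubled gates and by the mean over cells, 3 with cells of several gates assigned and 0 with Leiden clusters, while 1 was lower with cells of several gates assigned and with CPM without mitochondrial and ribosomal protein genes, and 5 in thinned cells. No paired analysis was possible because each group was 1 library of pooled rats, and for the same reason no replicate could be left out. With 55 control ECs and 36 control macrophages, 1 cell can move a level more than the counting interval shows.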
